A study of Homo sapiens with 18 samples.

Results

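These are the 229 genes, of 13505 measured in U2OS cells, whose transcript fell when estradiol (E2) was added to cells induced for estrogen receptor alpha (ERα), and was also lower in cells induced for estrogen receptor beta (ERβ) and given E2 than in the same line uninduced. Members were chosen on the authors' processed values on a log2 scale, as means of 3 arrays per group. The mean had to fall by at least 0.6 from doxycycline to doxycycline plus E2 in the ERα line. It also had to fall by at least 0.6 from no doxycycline to doxycycline plus E2 in the ERβ line, without rising by 0.4 or more when E2 was added to doxycycline there. Probes with 1 gene symbol that were detected (detection p under 0.01) on 3 or more of the 18 arrays were eligible, and a gene was read from its brightest such probe. The falls named in this rule, and the doxycycline step of the ERβ line that lies between them, are therefore a description of how the genes were chosen, and carry no test here. Of members, "fell" states the sign of such a measured difference.

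U2OS is a human osteosarcoma cell line. Cells were stably transfected with a vector that carries ERα or ERβ and is switched on by doxycycline, a tetracycline antibiotic. Each line was grown without doxycycline, with it, or with it plus E2, and RNA from the 6 groups of 3 samples was hybridized to 18 single-colour Illumina arrays. The 6 groups are named below as the ERα or ERβ line without doxycycline (uninduced), with doxycycline, and with doxycycline plus E2. All carry a receptor vector: no untransfected cells, no empty vector, and no E2 without doxycycline were among them. Doses, times, and whether a line is 1 clone or a pool are not given in the sources used here. Whether the 3 samples of a group were independent cultures is not stated, and a p-value here reflects array-to-array spread that could be wholly technical.

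Estrogen receptors are nuclear receptors that, once they bind estradiol, attach to DNA at estrogen response elements or join other factors already there, such as AP-1, the dimer of FOS and JUN proteins. They are best known for raising transcription, but they lower the transcripts of many genes as well. In breast cancer cells the lowered genes include brakes on proliferation and mediators of cell death. In bone, estrogen acts on osteoblasts, the matrix-forming cells to which osteosarcoma is related, and limits bone resorption.

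Levels below are log2 signals after background correction and quantile normalization, on which a difference of 1 is a 2-fold difference. Where no step is named, an ERα change is doxycycline plus E2 against doxycycline. An ERβ change is then doxycycline plus E2 against uninduced, so the values of the lines are not like for like. The raw medians were 216.7 to 251.3 per array, 40.6% to 46.1% of probes were detected, and the lowest detected level was 6.08 to 6.52. The transcript of the ERβ vector was present: ESR2 stood at 11.3 ± 0.14 (SD, n = 3) in the uninduced ERβ line, at 15.94 ± 0.14 with doxycycline and at 16.04 ± 0.01 with E2 added, and at 5.37 to 6.04 in the ERα groups. ESR2 was thus well above background in the ERβ line before induction. The single ESR1 probe lay near background in all 6 groups, with means of 4.90 to 6.34, so induction of ERα could not be read from these arrays. Of 10 osteosarcoma markers, 9 were detected, COL1A2 being the exception, and their summed level was 17.2 to 17.6 on all arrays. Such a sum is set mostly by its brightest genes, and CDH2, RUNX2 and TNFRSF11B among the 9 were members. Of the other 6, 1 fell and 0 rose with E2 in the ERα line at an adjusted p below 0.05 (limma). Over both ERβ steps 1 fell and 2 rose. Of all genes 11.2% fell and 11.0% rose in the first comparison, and 21.8% fell and 16.1% rose in the second. Of 8 blood markers 3 were detected, CD14, CD74 and LYZ, while PTPRC, CD3E, HBA1 and HBB were among those that were not. The summed blood marker level was 7.45 to 8.44 in 5 groups and 8.67 to 9.05 in the ERβ line with E2, where LYZ was higher than uninduced by 1.97 ± 0.28 (adjusted p = 4.8e-05, limma). Of 8 endothelial markers 5 were detected, without CDH5, CLDN5 and EMCN, and their sum was 10.72 to 10.85 in the ERα line with doxycycline and 11.95 to 12.24 with E2. ERβ arrays gave endothelial sums of 11.45 to 11.81 uninduced, 11.2 to 11.45 with doxycycline and 11.82 to 12.1 with E2. The part of these markers in the falls of the members was not tested.

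The start regions of the members are shown first, because AP-1 sites are a known place of estrogen receptor action. A promoter of 300 bases, from 250 before to 50 after the start, was on hand in RefSeq (GRCh38.p14) for 182 members and for 10937 of the genes measured. The AP-1 motif was read loosely as TGANTCA, with any base at N, which reads the same on both strands. It was in 15 members' windows, or 8.24%, against 5.15% of all windows. The estrogen response element, read as GGTCA and TGACC with any 3 bases between them, was in 0 of the 182 and in 2 of 10937. The nuclear receptor core motif AGGTCA, on either strand, was in 8.24% of the members' windows and 10.3% of all. These shares describe the windows and were not tested. Among the members named by the rule for named genes, 5 had the AP-1 motif. They are ANKRD1 (chr10:90921038-90921337, minus strand), F2RL2 (chr5:76623354-76623653, minus strand), PDGFRA (chr4:54229043-54229342, plus strand), PLAUR (chr19:43670120-43670419, minus strand) and RUNX2 (chr6:45328080-45328379, plus strand). Each window is printed 5′ to 3′ in the direction of the gene, and capitals mark TGANTCA, or AGGTCA in the RUNX2 window:
ANKRD1: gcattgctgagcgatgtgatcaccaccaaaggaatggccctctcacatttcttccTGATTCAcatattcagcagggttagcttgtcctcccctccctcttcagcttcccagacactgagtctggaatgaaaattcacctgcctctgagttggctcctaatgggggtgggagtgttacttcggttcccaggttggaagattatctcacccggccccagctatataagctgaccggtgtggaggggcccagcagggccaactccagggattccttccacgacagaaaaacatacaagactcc
F2RL2: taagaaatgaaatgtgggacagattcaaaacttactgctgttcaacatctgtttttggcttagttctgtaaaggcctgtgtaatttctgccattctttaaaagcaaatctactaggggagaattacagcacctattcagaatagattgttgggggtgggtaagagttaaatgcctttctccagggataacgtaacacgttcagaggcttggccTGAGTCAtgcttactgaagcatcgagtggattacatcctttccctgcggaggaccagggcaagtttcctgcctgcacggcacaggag
PDGFRA: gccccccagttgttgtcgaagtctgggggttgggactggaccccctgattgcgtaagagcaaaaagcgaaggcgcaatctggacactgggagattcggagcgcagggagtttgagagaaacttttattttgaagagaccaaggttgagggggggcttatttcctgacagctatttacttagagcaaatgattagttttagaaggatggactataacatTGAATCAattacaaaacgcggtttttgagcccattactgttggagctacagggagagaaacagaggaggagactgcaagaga
PLAUR: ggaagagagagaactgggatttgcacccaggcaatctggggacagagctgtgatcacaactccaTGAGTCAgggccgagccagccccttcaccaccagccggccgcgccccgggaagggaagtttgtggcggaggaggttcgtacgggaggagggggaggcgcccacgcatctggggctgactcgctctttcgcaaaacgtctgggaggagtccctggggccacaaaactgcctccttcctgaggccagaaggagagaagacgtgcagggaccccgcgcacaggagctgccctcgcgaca
RUNX2: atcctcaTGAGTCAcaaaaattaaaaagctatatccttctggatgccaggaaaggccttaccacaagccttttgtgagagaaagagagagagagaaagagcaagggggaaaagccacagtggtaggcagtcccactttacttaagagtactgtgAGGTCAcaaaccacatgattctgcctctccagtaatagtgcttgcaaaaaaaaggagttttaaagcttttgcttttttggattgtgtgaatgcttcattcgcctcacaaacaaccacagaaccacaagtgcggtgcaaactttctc

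The first base of the AP-1 motif lay at -37 from the start in F2RL2 and at -32 in PDGFRA. It lay farther upstream in PLAUR, at -186, in ANKRD1, at -195, and in RUNX2, at -243. In RUNX2 the AGGTCA motif began at -96. The open middle base of the AP-1 motif was G in F2RL2, PLAUR and RUNX2, T in ANKRD1 and A in PDGFRA. The 5 genes differ in function: ANKRD1 is a stretch- and YAP-responsive ankyrin protein, F2RL2 a thrombin-family receptor (PAR3), PDGFRA a platelet-derived growth factor receptor, PLAUR the urokinase receptor, and RUNX2 the master transcription factor of osteoblasts. Their ERα falls with E2 ran from 0.62 ± 0.26 (SE) in ANKRD1 to 1.64 ± 0.14 in PDGFRA on the log2 scale. Of the other motifs searched on both strands, the GC box GGGCGG was in 64.8% of the members' windows and 66.1% of all, and the E-box CACGTG in 10.4% and 9.90%. The TATA motif TATAAA was in 7.69% and 6.74%, the TEAD motif GGAATG in 8.24% and 11.3%, and the RUNX motif TGTGGT in 7.69% and 9.73%. The NF-kB motif (GGGA, any base, TTTCC) was in 0 of the members' windows and in 0.558% of all, and the palindromic SMAD motif (GTCT then AGAC) in 0.549% and 0.137%. The median GC content was 64.7% in both sets. The number of CG pairs over that expected from the C and G content had a median of 0.771 in members and 0.82 in all. Its lower quartiles were 0.477 and 0.629. The members' windows were thus close to those of all genes in median GC content and in the GC box, but lower in CG pairs, which was not tested.

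Of the genes measured, 447 met the ERα condition and 980 the ERβ condition, so the 229 members made up 51.2% of the first list and 23.4% of the second. Both falls were met by 230 genes, and the bound on the ERβ response to E2 left out 1, RGS16, a regulator of G protein signalling. RGS16 rose by 0.44 with E2 in the induced ERβ line on the rule's scale, while GASK1B (0.34) and ECM2 (0.26) were the nearest inside that bound. At the ERα threshold PCDH9 (-0.601) and ANKRD1 (-0.603) lay just inside, and HSF2BP (-0.5999) and LRRC8A (-0.5961) just outside. At the ERβ threshold DEDD2 (-0.602) and ARHGEF3 (-0.607) lay inside, and CLBA1 (-0.599) and CD58 (-0.597) outside. Membership near these thresholds is thus a matter of thousandths of a log2 unit, which is less than the median SE of a change, 0.146.

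Most members were protein-coding genes. In RefSeq 228 were matched, of which 221 were protein coding and 5 were long noncoding RNAs. On every array 207 were detected. In 13 members no array of at least 1 group was above background, and folds printed for them against such a group are lower bounds, set by the lowest detected level of each array. With the normalization used here the members' median log2 change was -0.97 with E2 in the ERα line, against -0.03 over all genes. Over both ERβ steps it was -1.28, against -0.07. On the authors' scale the members' medians were -0.83 and -1.02. A fall of at least 2-fold was measured in 107 members with ERα (46.7%, against 1.52% of all genes) and in 156 with ERβ (68.1%, against 3.52%). With this normalization all 229 fell by at least 0.6 in both, where 5.86% of all genes did so with ERα and 11.3% with ERβ. Against the uninduced ERα line, 216 members were lower by at least 0.6 with doxycycline plus E2 (94.3%, against 6.46%) and 116 by at least 1 (50.7%, against 1.8%). These shares follow from the rule, and nothing is read from them.

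**Figure D1:**
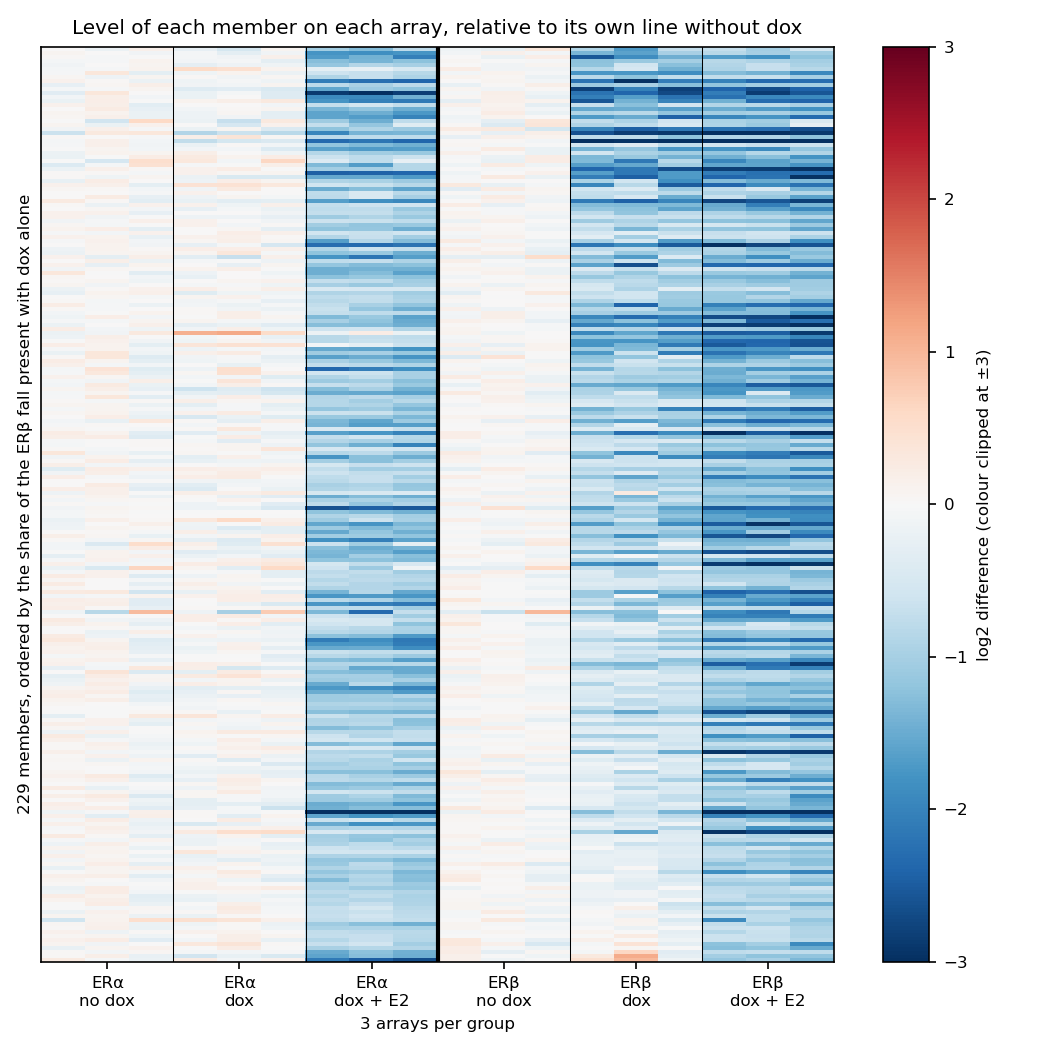
Heat map of the 229 members (rows) on the 18 arrays (columns), as the log2 level minus the mean of the same line without doxycycline, with colours clipped at 3 in either direction. Rows are ordered by the share of the ERβ fall that was present with doxycycline alone. The ERα line is near 0 with doxycycline and low with E2 added, while the ERβ line is already low with doxycycline in most rows.

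In 225 members every ERα array with E2 lay below every array with doxycycline alone (98.3%, against 20.8% of all genes). In 228 every ERβ array with doxycycline plus E2 lay below every uninduced array (99.6%, against 28.4%). The rule chose members on these comparisons, and nothing is read from the shares. The lowest of the 6 group means was the ERβ line with E2 in 176 members, the ERα line with E2 in 45 and the ERβ line with doxycycline alone in 8. The highest mean was in the uninduced ERα line in 104 members, in the ERα line with doxycycline in 67, in the uninduced ERβ line in 55 and in the ERβ line with doxycycline in 3.

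LMCD1, a LIM-domain transcription cofactor, came first among members when each was ranked by the smaller of its falls under the rule. In the ERα line its log2 levels were 15.22, 15.22 and 15.12 without doxycycline, 15.32, 15.24 and 15.28 with it, and 12.74, 12.77 and 12.81 with E2. ERβ levels were 12.13, 12.27 and 12.39 without doxycycline, 10.62, 10.11 and 10.56 with it, and 10.18, 10.03 and 9.95 with E2. The ERα arrays with and without doxycycline lay within 0.2 of each other, and E2 lowered the level by 5.68-fold (log2 change -2.51 ± 0.12). The ERβ line started 7.58-fold lower and had 83.0% of its 4.64-fold fall (on the log2 scale) with doxycycline alone.

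BMF, a BH3-only protein that promotes cell death by binding BCL2 family members, fell the most of all members with E2 in the ERα line. Its levels there were 9.70, 9.79 and 9.98, then 9.86, 9.76 and 9.80 with doxycycline, then 6.37, 6.57 and 6.62 with E2, a fall of 9.77-fold (-3.29 ± 0.15). The levels with E2 were above background on all 3 arrays, but next to the lowest detected level of 6.08 to 6.52. With ERβ the BMF levels were 8.73, 9.17 and 8.90, then 7.65, 8.20 and 7.57, then 5.81, 5.82 and 5.70. The last 3 were not above background, so BMF was at least 5.91-fold lower than in the uninduced ERβ line and at least 2.71-fold lower than with doxycycline alone. The arrays of the 3 ERβ groups did not overlap. HRK, another BH3-only protein, fell by 1.26 ± 0.20 with E2 in the ERα line and by 1.61 ± 0.20 in all in the ERβ line.

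A role in restraining growth or promoting death was assigned to 12 members, all with roles given after the members were known. DDIT4, an inhibitor of the growth-signalling complex mTORC1, stood at 14.04, 14.10 and 14.11 in the ERα line with doxycycline and at 12.16, 12.21 and 12.15 with E2, a 3.76-fold difference. Its ERβ levels were 14.51, 14.45 and 14.44 without doxycycline, 13.38, 14.42 and 12.82 with it, and 12.45, 12.96 and 12.85 with E2. The arrays with doxycycline alone were spread over the whole range between the other groups, and their lowest lay below the highest with E2. TXNIP, which binds thioredoxin and limits glucose uptake, showed the same spread: 10.58, 11.63 and 10.18 with doxycycline, between 12.47, 12.11 and 12.27 without and 10.06, 10.30 and 10.15 with E2. PIK3IP1, an inhibitor of PI3 kinase, fell by 1.33 ± 0.18 with ERα and 1.69 ± 0.18 with ERβ. CDKN1C, a cyclin-dependent kinase inhibitor, fell by 0.95 ± 0.12 and 0.90 ± 0.12. TRIB3 and NUPR1, both known as stress-induced regulators, fell by 1.09 ± 0.29 and 0.72 ± 0.19 in the ERα line and by 2.17 ± 0.29 and 0.81 ± 0.19 in the ERβ line. NUPR1 stood at 11.1, 11.12 and 11.28 in the uninduced ERα line, 11.73, 11.65 and 11.27 with doxycycline, and 10.88, 10.92 and 10.68 with E2.

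**Figure D2:**
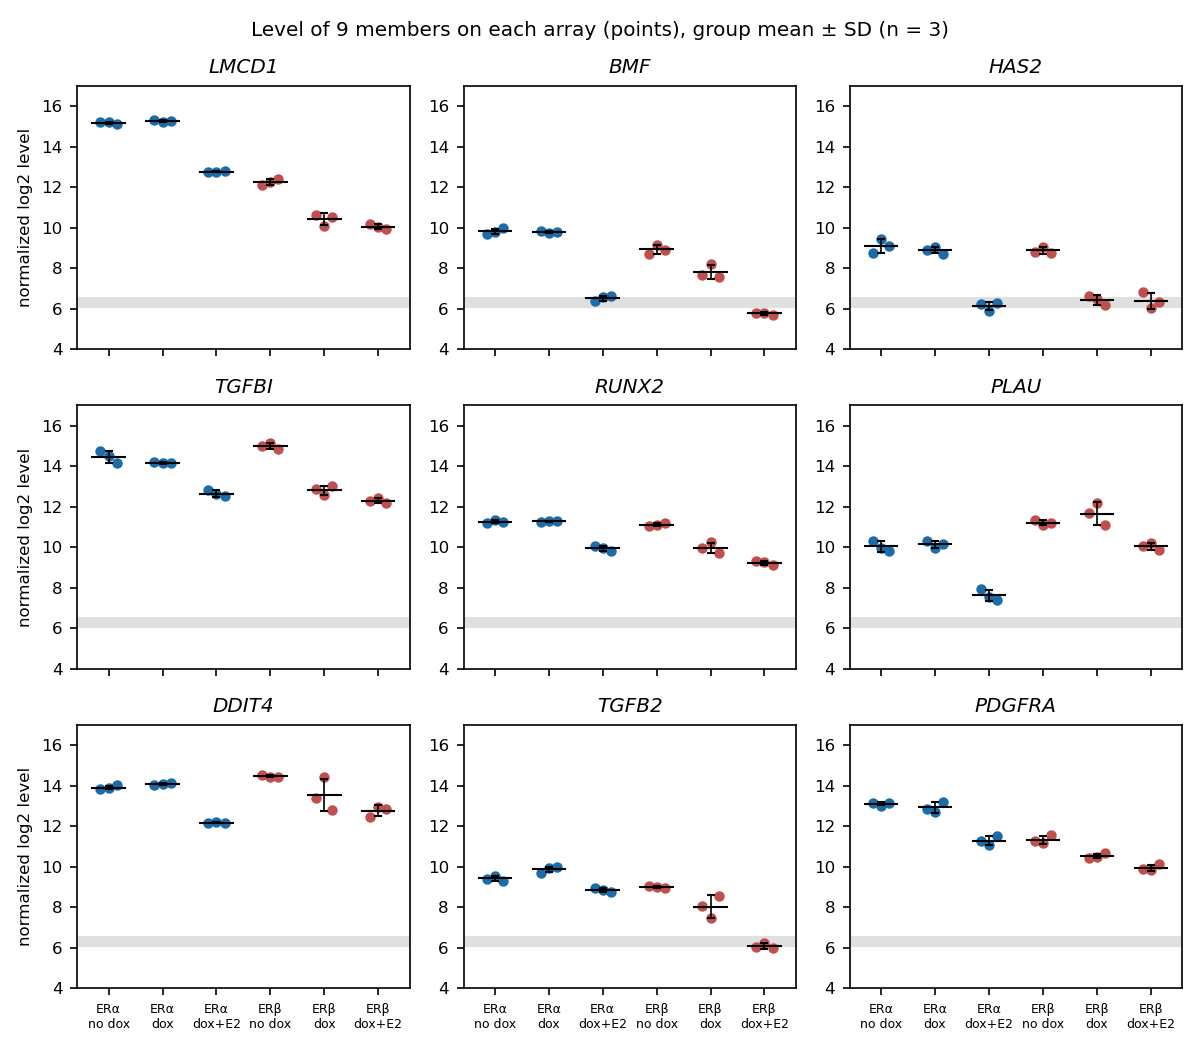
Normalized log2 level of 9 members on each array (points; blue, ERα line; red, ERβ line), with group mean and SD as bars (n = 3 arrays per group); the grey band is the range over arrays of the lowest detected level, 6.08 to 6.52. BMF and TGFB2 reach the band or lie below it in the ERβ line with E2, and HAS2 does so in both lines. The lowest BMF array of the ERα line with E2 (6.37) also lies in the band. PLAU is higher in each ERβ group than in the matching ERα group.

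TGF-beta and BMP signalling runs from secreted ligands through membrane receptors to SMAD proteins, and is held in check by extracellular antagonists and inhibitory SMADs. The members held a ligand (TGFB2), a receptor (TGFBR2), an antagonist of BMPs (NOG), an inhibitory SMAD (SMAD6) and the targets TGFBI and ID3. TGFB2 stood at 9.41, 9.55 and 9.31 in the uninduced ERα line. With doxycycline it was 9.70, 9.92 and 9.97 there, and with E2 8.94, 8.84 and 8.76. Its ERβ levels were 9.04, 8.99 and 8.97 without doxycycline, 8.06, 7.46 and 8.57 with it, and 6.06, 6.26 and 5.99 with E2. The last group was below detection on all 3 arrays, which makes the ERβ fall at least 6.21-fold and the E2 step at least 3.16-fold. TGFB2 thus stepped down at both ERβ steps, with no overlap between the arrays of the 3 groups.

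TGFBI is a matrix protein induced by TGF-beta. It stood at 14.23, 14.14 and 14.17 in the ERα line with doxycycline and at 12.82, 12.62 and 12.52 with E2. With ERβ it fell from 15.01, 15.13 and 14.83 to 12.88, 12.57 and 13.01 with doxycycline alone, and to 12.27, 12.42 and 12.18 with E2. NOG fell by 0.99 ± 0.13 in the ERα line and by 2.87 ± 0.13 in the ERβ line. SMAD6 fell by 1.54 ± 0.21 and 2.9 ± 0.21. ID3, a dominant-negative helix-loop-helix protein, did not share the ERβ doxycycline step: its change there was -0.05 ± 0.10, and its change with E2 was -0.76 ± 0.10. TGFBR2, the ligand-binding TGF-beta receptor, fell by 0.66 ± 0.09 and 1.03 ± 0.09. GDF15, a distant family member known as a stress hormone, fell by 0.97 ± 0.19 with ERα and 2.61 ± 0.19 with ERβ. Its ERα means were 7.32 uninduced, 8.23 with doxycycline and 7.27 with E2. The ERα fall of GDF15 thus ran from a higher level with doxycycline back to about the uninduced level.

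The list of that pathway held 24 measured genes, 7 of them members, where 229 of all 13505 genes were members. At an adjusted p below 0.05 (limma, over all genes), 6 of the 24 rose and 9 fell with E2 in the ERα line. Over both ERβ steps 10 rose and 10 fell, and at the E2 step of the ERβ line 4 rose and 11 fell. The counts below leave out the members, which the rule chose for falling, so nothing is read from an excess of rises in them. Of the other 17, 6 rose and 2 fell with E2 in the ERα line at an adjusted p below 0.05 (limma, over all genes), where 11.0% of all genes rose and 11.2% fell. Over both ERβ steps, 10 of the 17 rose and 3 fell, where 16.1% of all genes rose and 21.8% fell. At the E2 step of the ERβ line 4 rose and 4 fell, where 7.01% of all genes rose and 6.85% fell. FST, which encodes follistatin, rose by 2.29 ± 0.09 with E2 in the ERα line (adjusted p = 5.12e-11, limma). Over both ERβ steps FST rose by 3.29 ± 0.09 (adjusted p = 6.72e-13, limma), but its change at the E2 step was 0.15 ± 0.09 (adjusted p = 0.351, limma). SMAD7, the other inhibitory SMAD, rose by 1.66 ± 0.13 in the ERβ line (adjusted p = 7.36e-08, limma), and its ERα change was 0.08 ± 0.13 (adjusted p = 0.737, limma). BMP2, a bone-forming ligand, went in opposite directions, rising by 1.79 ± 0.15 in the ERα line (adjusted p = 2.84e-07, limma) and falling by 1.31 ± 0.15 in the ERβ line (adjusted p = 4.15e-06, limma). ID1, closely related to ID3, fell by 1.53 ± 0.17 with E2 in the ERα line (adjusted p = 7.76e-06, limma). Its change was 0.10 ± 0.17 over both ERβ steps (adjusted p = 0.707, limma) and 0.45 ± 0.17 at the E2 step there (adjusted p = 0.108, limma).

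Genes of the pericellular matrix and of matrix proteolysis included HAS2, which makes hyaluronan. HAS2 stood at 8.92, 9.05 and 8.73 in the ERα line with doxycycline and at 6.23, 5.90 and 6.29 with E2, where only 1 of 3 arrays was above background. With ERβ it fell from 8.83, 9.06 and 8.76 to 6.66, 6.50 and 6.18 with doxycycline alone, and stood at 6.81, 6.03 and 6.32 with E2. Of the measured ERβ fall of HAS2, 97.5% was thus present with doxycycline alone, at levels next to the detection limit, where a further fall could not be measured. PLAU is the protease urokinase. It was 11.36, 11.09 and 11.20 in the uninduced ERβ line, 11.70, 12.20 and 11.09 with doxycycline, and 10.05, 10.21 and 9.86 with E2. In the ERα line PLAU fell from 10.29, 9.96 and 10.18 with doxycycline to 7.92, 7.56 and 7.39 with E2, by 5.73-fold. The E2 change of PLAU was thus -2.52 ± 0.22 and -1.62 ± 0.22, with a doxycycline change of 0.45 ± 0.22 in the ERβ line. Its receptor PLAUR fell by 0.71 ± 0.16 with E2 in the ERα line and by 0.62 ± 0.16 with E2 in the ERβ line. CCN3, a secreted matricellular protein, fell by 1.01 ± 0.09 with ERα and 0.76 ± 0.09 with ERβ. ECM2, a matrix protein, was below background in the ERβ line with doxycycline and with E2, and was at least 2.04-fold lower with both than uninduced. Among 33 further matrix genes on the list, 3 rose and 5 fell with E2 in the ERα line at an adjusted p below 0.05 (limma). Of all genes 11.0% rose and 11.2% fell. Over both ERβ steps 11 of the 33 rose and 5 fell, where 16.1% of all genes rose and 21.8% fell. With the 3 members on that list counted, 3 rose and 8 fell with ERα, and 11 rose and 8 fell with ERβ.

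RUNX2 was the 1 member on the list of bone regulators, and TNFRSF11B, on the list of cytokines, also acts in bone. RUNX2 stood at 11.25, 11.29 and 11.28 in the ERα line with doxycycline and at 10.07, 9.95 and 9.83 with E2. With ERβ it went from 11.06, 11.09 and 11.19 to 9.96, 10.24 and 9.74 with doxycycline and 9.34, 9.25 and 9.12 with E2, and the 3 groups did not overlap. Between the uninduced lines the RUNX2 difference was -0.15 ± 0.11 and did not pass the test (adjusted p = 0.254, limma). TNFRSF11B, or osteoprotegerin, which blocks osteoclast formation, fell from 11.49, 11.57 and 11.34 to 10.33, 10.36 and 10.49 with E2 in the ERα line. Its ERβ level fell by 5.25-fold with doxycycline alone, from 12.56, 12.48 and 12.58 to 10.15, 10.40 and 9.89. VDR, the vitamin D receptor, had its ERβ fall at the other step: the change was 0.02 ± 0.24 with doxycycline and -1.40 ± 0.24 with E2, where 1 of 3 arrays was above background. Of the 16 other genes on the bone list, 3 rose and 2 fell with E2 in the ERα line at an adjusted p below 0.05 (limma). Of all genes 11.0% rose and 11.2% fell. Over both ERβ steps 3 of the 16 rose and 3 fell, where 16.1% of all genes rose and 21.8% fell.

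Growth factor receptors and their regulators numbered 11. PDGFRA stood at 12.85, 12.71 and 13.21 in the ERα line with doxycycline and at 11.29, 11.06 and 11.50 with E2. Its ERβ levels were 11.27, 11.15 and 11.55 without doxycycline, 10.45, 10.48 and 10.66 with it, and 9.88, 9.85 and 10.13 with E2. ERBB3, a receptor for neuregulin, fell by 1.52 ± 0.17 with ERα and 1.66 ± 0.17 with ERβ, in the latter about equally at each step. ROR1, a receptor-like kinase for WNT5A, fell by 2.16 ± 0.27 and 2.06 ± 0.27, and in the ERβ line 96.9% of the fall was present with doxycycline alone. Of 26 other growth factors and receptors, 3 rose and 6 fell with E2 in the ERα line at an adjusted p below 0.05 (limma). Of all genes 11.0% rose and 11.2% fell. Over both ERβ steps 8 of the 26 rose and 8 fell, where 16.1% of all genes rose and 21.8% fell. FGFR3 rose by 3.49 ± 0.13 in the ERα line (adjusted p = 3.09e-11, limma) and by 2.07 ± 0.13 in the ERβ line (adjusted p = 4.63e-09, limma). HBEGF, also not a member, fell by 0.73 ± 0.16 (adjusted p = 0.00286, limma) and 0.66 ± 0.16 (adjusted p = 0.00352, limma). FGF1, not a member either, fell by 1.51 ± 0.17 in the ERα line (adjusted p = 1.04e-05, limma). In the ERβ line with E2, FGF1 was not above background. Both HBEGF and FGF1 met the rule's thresholds on the normalized values printed here. They did not on the authors' processed values, which set membership.

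Among receptors and enzymes of cyclic nucleotide and G protein signalling, GUCY1A2, a subunit of the nitric oxide receptor guanylate cyclase, fell by 1.58 ± 0.20 with ERα and 2.02 ± 0.20 with ERβ. PDE5A, which breaks down cyclic GMP, fell by 1.18 ± 0.09 and 2.63 ± 0.09. ADORA2B, an adenosine receptor, fell by 0.97 ± 0.13 and 2.53 ± 0.13, and GPRC5A, an orphan receptor induced by retinoic acid, by 1.62 ± 0.16 and 2.05 ± 0.16. F2RL2 fell by 1.44 ± 0.17 and 2.89 ± 0.17. ADM, the vasodilator peptide adrenomedullin, was level with doxycycline in the ERβ line, where its arrays were 9.64, 9.38 and 9.32 without and 9.47, 9.50 and 9.44 with it, and then stood at 8.16, 8.24 and 7.94 with E2.

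Of 18 cytoskeletal and adhesion genes, 15 had a larger ERβ fall with doxycycline than with E2. SYNPO2L, an actin-associated protein of muscle, stood at 12.14, 12.24 and 12.14 in the ERα line with doxycycline and at 10.19, 10.02 and 9.90 with E2. With ERβ it went from 9.58, 9.66 and 9.49 to 7.37, 6.62 and 7.50 with doxycycline and 7.56, 7.25 and 7.30 with E2. IQGAP2, a scaffold that binds actin, fell by 2.55 ± 0.17 with doxycycline in the ERβ line and changed by 0.05 ± 0.17 with E2. CLDN1, a tight junction protein, fell by 0.75 ± 0.18 with E2 in the ERα line and by 2.49 ± 0.18 in the ERβ line. Its ERα arrays were 11.73, 11.63 and 11.24 uninduced, 11.89, 11.98 and 11.96 with doxycycline, and 11.45, 11.23 and 10.9 with E2. CDH2, or N-cadherin, fell by 0.63 ± 0.08 and 0.95 ± 0.08, and THY1, a membrane glycoprotein of fibroblasts, by 0.65 ± 0.15 and 0.77 ± 0.15.

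Ion channels and transporters numbered 14. GABRR1, a subunit of a chloride channel gated by GABA, had the largest ERβ fall of all members with doxycycline alone. Its ERβ arrays were 12.75, 12.76 and 12.63 without doxycycline, 9.43, 9.77 and 8.57 with it, and 8.89, 8.81 and 8.86 with E2, a 14.5-fold fall in all. In the ERα line it was 12.19, 12.42 and 12.17, then 11.51, 11.74 and 11.83, then 9.92, 10.07 and 9.87. The ERα arrays with doxycycline all lay below those without, but the difference of -0.57 did not pass the test (adjusted p = 0.812, limma). KCNA1, a potassium channel, fell by 1.64 ± 0.13 with E2 in the ERα line, fell by 1.33 ± 0.13 with doxycycline in the ERβ line, and changed by 0.37 ± 0.13 with E2 there. SLC2A1, the glucose transporter GLUT1, fell by 0.90 ± 0.10 with E2 in the ERα line. With ERβ, SLC2A1 changed by -0.06 ± 0.10 with doxycycline and by -0.66 ± 0.10 with E2.

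Transcription factors and cofactors were the most numerous role, with 22 members. SOX18, a factor of blood and lymph vessel development, fell by 1.77 ± 0.20 with ERα and 2.03 ± 0.20 with ERβ. ZXDA, a zinc finger protein, fell by 1.39 ± 0.10 and 1.54 ± 0.10. BHLHE41, a repressor in the circadian clock, fell by 1.09 ± 0.17 and 2.28 ± 0.17. A further member, KLRD1, the CD94 subunit of natural killer cell receptors, fell by 2.00 ± 0.17 in the ERα line. TMEM200A and PCED1B, further members with large falls in both lines, fell by 1.58 ± 0.17 and 1.87 ± 0.16 with ERα and 2.67 ± 0.17 and 2.14 ± 0.16 with ERβ. KLRD1 was below background in the induced ERβ groups, at least 3.43-fold lower with doxycycline alone than without.

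A list of genes known from breast cells to fall with estrogen held 38 measured genes, and 9 were members: BMF, DDIT4, ERBB3, ID3, LMCD1, PIK3IP1, SMAD6, TGFB2 and TXNIP. Of all 13505 genes, 229 were members. This list was drawn up with earlier results of these data known. Of the other 29, 3 rose and 8 fell with E2 in the ERα line at an adjusted p below 0.05 (limma), where 11.0% of all genes rose and 11.2% fell. Over both ERβ steps 7 of the 29 rose and 5 fell, where 16.1% of all genes rose and 21.8% fell. TP53INP1, a stress-induced protein, fell by 0.78 ± 0.11 in the ERα line (adjusted p = 1.05e-04, limma), and its ERβ change was -0.01 ± 0.11 (adjusted p = 0.953, limma). KLF6, a zinc finger factor, fell by 1.5 ± 0.13 in the ERβ line (adjusted p = 3.4e-07, limma), and its ERα change was 0.07 ± 0.13 (adjusted p = 0.788, limma). Of 28 immediate-early and MAPK feedback genes and 20 interferon-stimulated genes measured, 0 were members. As only 229 of 13505 genes were members, nothing is read from 0 in lists this short.

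In the ERβ line the fall came in 2 steps, doxycycline and then E2. The median change of the members was -0.81 with doxycycline alone and -0.51 with E2 on top, against -0.04 and -0.03 over all genes. The fall was larger with doxycycline than with E2 in 153 members. A fall of at least 0.6 was measured at both steps in 51 members, with doxycycline only in 92, with E2 only in 39 and at neither in 47. By at least 1, 74 members fell with doxycycline alone (32.3%, against 1.47% of all genes) and 24 with E2 on top (10.5%, against 0.526%). With doxycycline alone, 143 members (62.4%) had fallen by at least 0.6, against 4.87% of all genes. With E2 on top, 90 (39.3%) fell by that much, against 3.18%. Every array lay below every array of the step before in 193 members with doxycycline (84.3%, against 19.2%) and in 153 with E2 (66.8%, against 15%). As the rule fixes the sum of the steps, these counts describe the members and nothing is read from the background.

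The share of the ERβ fall already present with doxycycline alone had a median of 60.7%, with quartiles of 43.1% and 74.2%. It was above 75% in 56 members and below 25% in 20. These shares include the 13 members not above background in a group, where they compare background signal in part. Among members detected on all arrays of both groups, GASK1B, KCNA1, PRICKLE1, SYNPO2L and ASPH had the highest E2 changes in the ERβ line, from 0.20 ± 0.09 in ASPH to 0.38 ± 0.24 in GASK1B. Each of these 5 had fallen by at least 1.12 with doxycycline. The measured value of ECM2 was higher still, but all its arrays in both groups were below background, so it has no measured E2 response there. At the other end of the E2 step NOG, PLAU, DMBT1 and SERTAD4 had changes from -1.45 ± 0.12 in SERTAD4 to -1.68 ± 0.13 in NOG. BMF and TGFB2 also belonged there by their measured values, but were below background with E2, and only the bounds of at least 2.71-fold and 3.16-fold given above hold for them, so their rank is not known. Of these, PLAU (0.45 ± 0.22) and DMBT1 (0.38 ± 0.24), a secreted scavenger-receptor protein, stood higher with doxycycline than without. SCG5 and VDR, with changes of 0.08 ± 0.18 and 0.02 ± 0.24, and ADM, with 0.03 ± 0.11, were level between those groups.

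**Figure D3:**
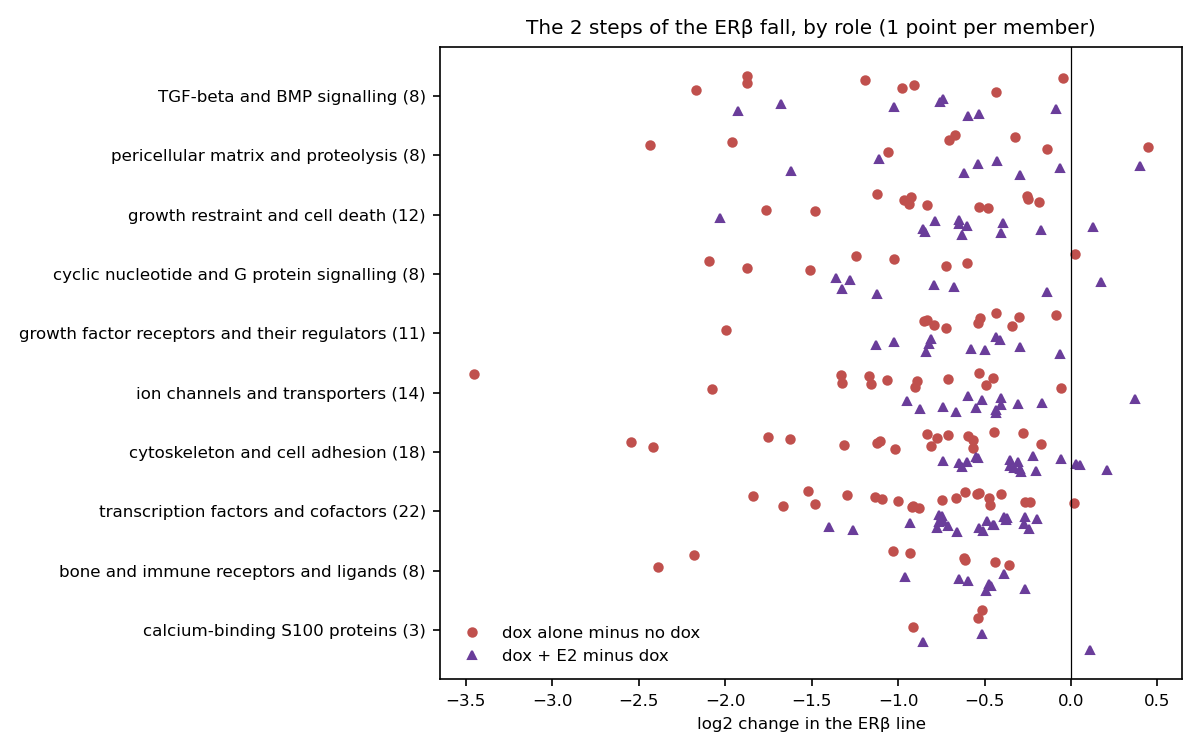
Log2 change of members in the ERβ line by role, 1 point per member (circles, doxycycline minus no doxycycline; triangles, doxycycline plus E2 minus doxycycline); the number of members in a role stands in brackets, and a role was assigned to 112 of the 229. Cytoskeletal genes lie farther left with doxycycline than with E2 (15 of 18), while growth factor receptors overlap at both steps (5 of 11 fell more with doxycycline).

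Counts by role were as follows. The fall was larger with doxycycline in 16 of 22 transcription factors, 10 of 14 channels and transporters and 6 of 8 bone and immune receptors. It was larger with doxycycline in 4 of 8 TGF-beta and BMP genes, 4 of 8 matrix genes and 6 of 12 genes of growth restraint and cell death. These are counts in small groups and the difference between roles was not tested. The ERβ arrays with doxycycline alone also varied most: the median SD of the members was 0.22 there, against 0.12 to 0.17 in the other 5 groups, and 0.17 in the same group over all genes. Of the 3, arrays 4, 5 and 6 were the highest in 89, 90 and 50 members and the lowest in 19, 82 and 128. Array 5 was the highest in DDIT4, TXNIP and TRIB3 and the lowest in SYNPO2L. Leaving out array 4, 5 or 6, the median doxycycline change of the members was -0.843, -0.778 and -0.734, and the median E2 change -0.489, -0.498 and -0.591.

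Doxycycline alone in the ERα line is a comparison the rule did not use, although its upper group also served the rule, which favours members that stood high there. No member passed the test in either direction: 0 of 229 were higher or lower at an adjusted p below 0.05 (limma over all genes), where 0.0074% of genes were called higher and 0.0074% lower. At an unadjusted p below 0.05 there were 14 members, 5 higher and 9 lower, where 5.26% of all genes met this. The test did not pair arrays, and with the authors' processed values 3 members passed, 2 lower and 1 higher. The members' median change was -0.04, against -0.002 over all genes, and the changes ran from -0.78 in CRYBA4, a lens crystallin, to 0.92 in GDF15 (adjusted p = 0.281, limma). CRYBA4 alone was lower by at least 0.6 (0.437% of members, against 0.504% of all genes), and 0 members were lower by at least 1 (0.037% of all genes). Every array was lower with doxycycline than without in 22 members (9.61%), against 3.31% of all genes. Since the single ESR1 probe was near background, whether ERα rose in these cells was not tested.

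**Figure D4:**
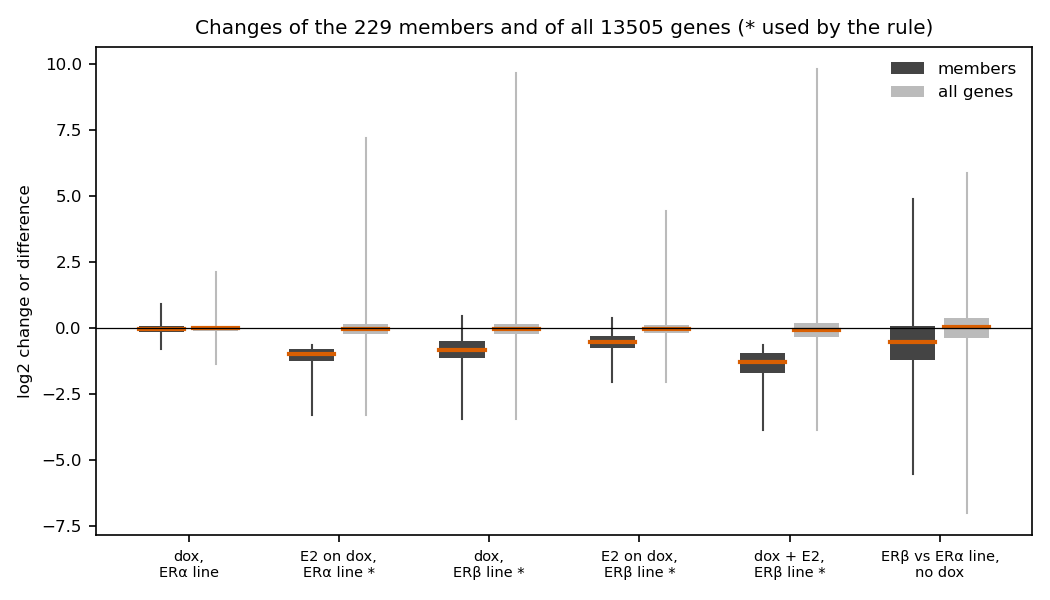
Log2 change or difference of the 229 members (dark) and of all 13505 genes (light) in 6 comparisons; boxes span the quartiles, orange lines are medians, thin lines reach the lowest and highest value, and an asterisk marks comparisons that the rule used or fixes. The members' box is at 0 for doxycycline in the ERα line (median -0.04) and below that of all genes for the uninduced lines (median -0.51 against 0.04).

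The uninduced lines were compared next, to see whether the members already differed before doxycycline. Here the rule favours members that are high in the uninduced ERβ line. It also favours members that are high in the ERα line with doxycycline, where their median change from uninduced was -0.04. The choice of members thus acts on both sides of this comparison, and its net effect on the counts was not tested. Of the members 130 (56.8%) were lower in the ERβ line than in the ERα line at an adjusted p below 0.05 (limma), against 24.1% of all genes, and 37 (16.2%) were higher, against 26.5%. The remaining 62 were not called. The median difference was -0.51, against 0.04 over all genes. At least a 2-fold lower level was measured in 67 members (29.3%, against 7.78%) and at least a 2-fold higher level in 18 (7.86%, against 6.06%). Lower by at least 0.6 were 101 (44.1%, against 15.6%), and in 137 every ERβ array lay below every ERα array (59.8%, against 26.0%). In 63 members (27.5%, against 46.4% of all genes) the mean of the uninduced ERβ line lay below that of the ERα line with E2.

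CRYBA4 differed most. It stood at 13.85, 14.77 and 14.83 in the uninduced ERα line and at 9.01, 8.70 and 9.11 in the uninduced ERβ line, 46.6-fold lower (adjusted p = 4.9e-11, limma), and was below background in the induced ERβ groups. SLN, or sarcolipin, a regulator of the calcium pump of muscle, stood at 13.44, 13.27 and 13.48 against 7.94, 8.27 and 7.79, 42.1-fold lower (adjusted p = 1.72e-11, limma). DYNC1I1, an intermediate chain of dynein, was 18.4-fold lower (adjusted p = 1.88e-12, limma), from 14.10, 14.40 and 14.52 to 9.91, 10.19 and 10.33. In all 3 genes the groups were far apart. CRACDL, LMCD1, SYNPO2L, ALPK2 and TRIB2 followed, with differences of -3.21 ± 0.27, -2.92 ± 0.12, -2.69 ± 0.18, -2.68 ± 0.15 and -2.59 ± 0.14.

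In the other direction, GDF15 stood at 7.13, 7.22 and 7.60 in the uninduced ERα line and at 12.33, 12.09 and 12.23 in the uninduced ERβ line, 29.9-fold higher (adjusted p = 3.65e-11, limma). In the ERβ line it then fell to 10.29, 10.66 and 10.08 with doxycycline and 9.72, 9.74 and 9.35 with E2, still above every ERα array. TXNIP was 5.52-fold higher in the uninduced ERβ line (adjusted p = 1.62e-06, limma) and TRIB3 2.96-fold higher (adjusted p = 3.89e-04, limma). SCG5, a neuroendocrine secretory protein, SP140, a nuclear body protein of immune cells, MTARC1, a mitochondrial reductase, SLC1A3, a glutamate transporter, and ARG2, mitochondrial arginase, were higher by 1.42 ± 0.13 (ARG2) to 2.49 ± 0.18 (SCG5).

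**Figure D5:**
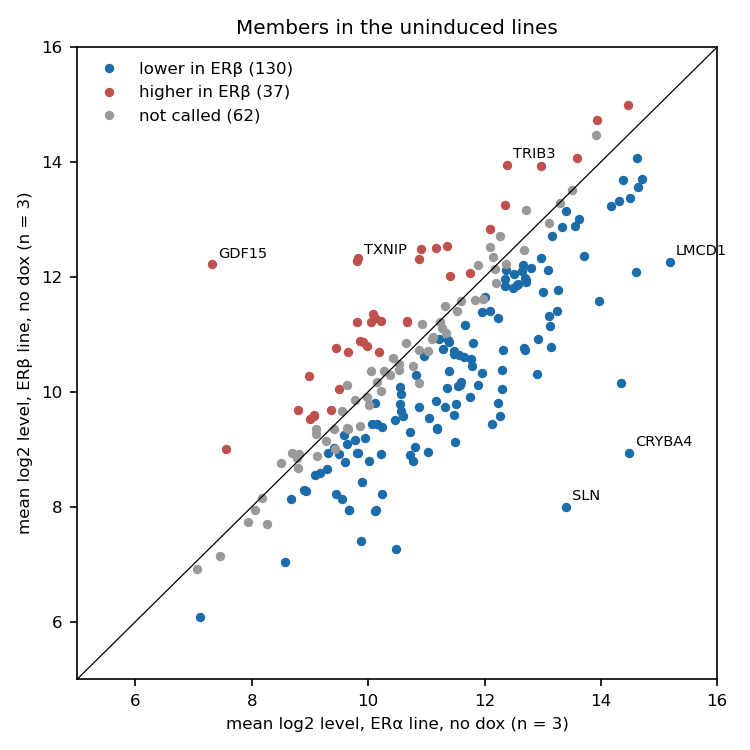
Mean log2 level of each member in the uninduced ERα line (x axis) and the uninduced ERβ line (y axis), n = 3 arrays each; blue points are lower in ERβ (130), red points higher (37) and grey points not called (62) at an adjusted p below 0.05, and the line marks equal levels. CRYBA4 and SLN lie far below the line, and GDF15 far above it.

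By role, 9 of 11 growth factor receptors and regulators were lower in the uninduced ERβ line and 0 higher, and 13 of 18 cytoskeletal genes were lower and 0 higher. Of all members 56.8% were lower and 16.2% higher, and of all genes 24.1% and 26.5%. The difference between roles was not tested. Among TGF-beta and BMP genes 2 were lower and 5 higher. PDGFRA was 3.46-fold lower (adjusted p = 9.02e-08, limma) and THY1 lower by 2.26 ± 0.15 (adjusted p = 1e-08, limma). Both are also markers of fibroblasts, and 9 of the 10 fibroblast markers were detected, DPT being at background throughout. The summed level of these markers was 16.29 to 16.45 in the uninduced ERα line, 16.29 to 16.38 with doxycycline and 16 to 16.06 with E2. ERβ arrays gave 14.55 to 14.59 uninduced and 13.74 to 13.94 in both induced groups. The 7 detected of 12 epithelial markers summed to 14.5 to 15.03 on the ERα arrays and 13.7 to 14.06 on the ERβ arrays, with KRT5, CLDN3, CLDN7, ESRP1 and GRHL2 at background. The part of these markers in the difference between the lines was not tested. DDIT4, NUPR1 and TRIB3 were on a list of the ATF4 and amino-acid stress response. Of its other genes, 20 of 24 were higher in the uninduced ERβ line and 0 lower, where 26.5% of all genes were higher and 24.1% lower. Over both ERβ steps 15 of the 24 fell and 0 rose, where 21.8% of all genes fell and 16.1% rose.

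The falls were also described by which line started higher. In members lower in the uninduced ERβ line the median ERβ fall was 1.24 and the median ERα fall 0.98. In members higher there the medians were 1.40 and 0.97, and in those not called 1.31 and 0.91. With E2, 184 members stood lower in the ERβ line than in the ERα line (80.3%, against 50% of all genes), a difference between groups that the rule used.

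Of the members, 67 had 97 further probes that passed the detection filter. Of these 86 were lower in both of the rule's comparisons, 49 of them by at least 0.6 in both, and 11 probes of 10 members were higher in at least 1. A second BMF probe fell by 2.74 with ERα and 2.40 with ERβ, and a second PDGFRA probe by 1.58 and 1.63. Further probes of ROR1 (1.76 and 2.25) and KLRD1 (2.16 and 2.51) did likewise. HAS2 had a second probe that fell by 1.54 and 1.84, and another that changed by 0.19 and -0.16. A second RUNX2 probe, detected on 12 arrays, changed by 0.09 and -0.06, so that the fall of RUNX2 was measured by 1 of its 2 probes. The 2 further probes of ASPH changed by -0.19 and -0.16 in the ERα line and by 0.04 and 0.07 in the ERβ line. One further TGFBR2 probe fell by 0.57 and 0.89, another changed by -0.02 and -0.20, and the last, detected on 3 arrays, by 0.23 and -0.92.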

How the data were processed

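Total RNA (750 ng, biotin-labelled, per the labels' protocols) was hybridized to 18 Illumina arrays. The authors deposited non-normalized intensity values per probe, each with a detection p-value that the authors' scanner software gave, and processed intensity values. The tool given in the submitters' processing notes is lumi, with neither version nor steps. The repeated line was dropped, leaving 48803 probes, of which 27578 had 1 symbol. The rule used log2 of the processed values. Levels and tests used the non-normalized values after neqc (normexp background from detection p, quantile normalization, offset 16), then lmFit and eBayes on 6 group means (limma 3.58.1, R 4.3.3), with Benjamini-Hochberg adjustment over 13505 genes. This was checked on simulated data. Figures used matplotlib 3.10.9. Promoters came from RefSeq (GRCh38.p14).

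The members, lists and tests were chosen with earlier results of these data known. Genes were named by a fixed rule: the 15 members with the largest smaller fall, the 6 at each end of the ERβ response to E2, members in 12 role lists, up to 8 per direction in each test, and genes beside each threshold. ADM, BHLHE41, CCN3, CDKN1C, CLDN1, IQGAP2, PDE5A, SLC2A1 and VDR, and the genes named that are no members, were chosen after their values were seen, as was the assignment of 112 members to roles. The main tests did not pair arrays, and a replicate block was run only as an alternative. Deviations of same-numbered uninduced arrays from their group means correlated at 0.213, 0.426 and 0.525. In several members the last array was the highest of its 3 in all 6 groups. PDP1, ANKRD1, GASK1B, MYO10, PM20D2, RABGAP1L, SAP30 and ST6GALNAC5 are examples, picked for this pattern. A block by array order over all 6 groups was not run, so the SEs and p-values take no account of such an order. The processed values did not show a positive correlation by the labels' replicate numbers: over all groups same-numbered samples correlated at a median of -0.185 (-0.379 to 0.0437), against 0.084 for other numbers. Array numbers of the doxycycline groups in the non-normalized values could not be tied to the labels' replicate numbers, so arrays were left out one at a time by array. Alternatives were no background correction, a median shift, the processed values, other detection filters, other fall thresholds, the mean of a gene's probes and a replicate block. The number of arrays limits the precision.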

Additional observations from a re-analysis of the deposited data

How the results depend on the processing

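With ERα doxycycline alone, 0 members passed (limma), and 3 with the authors' processed values (2 lower, 1 higher). Leaving out 1 array or replicate gave 0 to 2 (0 to 1 lower, 0 to 1 higher). With the replicate block on the processed values it was 0. Between the uninduced lines, 167 members passed and 153 to 189 under the alternatives. The replicate block gave 187 on the processed values (141 lower, 46 higher) and 179 on the uninduced arrays alone (136 lower, 43 higher), the latter chosen after seeing the data; same-numbered samples did not deviate together in the processed values. With it ANKRD1, DDIT4, GABRR1, SOX18 and TGFB2 also passed. The rule took 384 genes on the normalized values used here, 228 of them members, and 56 at falls of at least 1, since a stricter threshold passes fewer. Leaving out replicate 1, 2 or 3 it took 237, 231 and 220, of which 211, 213 and 204 were members. The members' median ERβ change over both steps, -1.28, was -0.944 without background correction and -1.02 on the processed values, and the median with doxycycline, -0.809, was -0.617 without background correction. The cause was not tested. No direction reversed among the results and alternatives run. Of the values of single named genes under the alternatives, 3371 kept their call, 56 gained it and 22 lost it. Signal next to background limits the falls of 13 members.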
